A study of Homo sapiens with 9 samples.

Results

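Cornified envelope and desmosome genes were described across 9 RNA-seq libraries of KYSE180, a line from a human squamous cell carcinoma of the esophagus, KDM6A-deficient by the series title. The 10 genes were TGM1, EVPL, PPL, PRSS27, IVL, DSP, JUP, PKP3, DSG2 and DSC2, chosen by function with earlier results of these data known, and matched by symbol to 10 of the 57905 genes in the table. All 9 libraries came from cells exposed to 6 Gy of ionizing radiation, and no unirradiated sample was analysed here. The control group carried a hairpin called shluc and had the genotype label WT. The other groups carried shEZH2#1 or shEZH2#3, hairpins against EZH2, the methyltransferase of Polycomb repressive complex 2. Each group had 3 libraries, all from this 1 line. Titles and design text speak of knockdown, whereas the genotype label of both EZH2 hairpin groups says knockout. No label says that replicates were separate cultures, and p-values here cover no more than the spread among these libraries, which may be of technical origin.

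The cornified envelope is the protein shell that replaces the plasma membrane of fully differentiated squamous cells. Transglutaminase 1 cross-links precursors such as involucrin onto a scaffold that envoplakin and periplakin form at the membrane, close to desmosomes. A desmosome joins neighbouring cells through cadherins (desmogleins and desmocollins), whose tails bind the armadillo proteins plakoglobin and plakophilin, and desmoplakin links these to keratin filaments. In the esophagus the stratified squamous lining depends on desmosomes for mechanical strength, and its upper layers make involucrin and other envelope precursors.

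Library totals ranged from 14958011 to 21152006 estimated counts. EZH2 averaged 19.3 CPM (counts scaled to a common library total, with TMM factors) in the shluc libraries, against 10.1 with shEZH2#1 and 9.94 with shEZH2#3, with log2 fold changes of -0.94 ± 0.18 (SE, adjusted p = 0.00163) and -0.96 ± 0.18 (adjusted p = 0.000433). All adjusted p-values are from edgeR's quasi-likelihood test over 13252 genes with Benjamini-Hochberg adjustment, and a gene was called below 0.05. In each library, the level of a gene relative to its mean over the libraries was related to the GC content of its transcript: the rank correlation across genes ran from -0.69 to -0.39 in the shluc libraries, from -0.25 to 0.25 with shEZH2#1 and from 0.37 to 0.64 with shEZH2#3. These ranges did not overlap between groups, so a fit with a GC and length correction is given beside the results. The lowest GC correlation and the highest TMM factor (1.33) were those of shluc replicate 2. shEZH2#3 replicate 2 had the highest GC correlation (0.64). The lowest TMM factor (0.827) was that of shEZH2#3 replicate 1, whose GC correlation (0.37) was the lowest of its group. Several defining markers of squamous epithelium were near 0: TP63 averaged 0.653, 0.687 and 0.22 CPM in shluc, shEZH2#1 and shEZH2#3, KRT5 0.55, 0.143 and 0.562, and no library passed 0.363 CPM for KRT14. The squamous list of 10 markers summed to 1170 to 1520, 1630 to 1960 and 1550 to 1840 CPM, most of it KRT17. KRT17 stood at 1160, 1450 and 1180 CPM. ITGB4, a hemidesmosomal integrin subunit of that list, was called higher with both hairpins (197, 343 and 463 CPM), and KRT15 was called higher with shEZH2#1 and not called with shEZH2#3 (1.54, 6.34 and 0.928 CPM). ITGA6 (17.5, 14 and 8.07 CPM) and CDH1 (5.18, 5.23 and 2.61) of the list were called lower with shEZH2#3. These calls held with the correction. With it KRT15 (-1.06, adjusted p = 0.0086) and KRT17 (-0.64, adjusted p = 0.000203) were also called lower with shEZH2#3. Of the 5 simple epithelial markers, KRT8 (4500, 6070 and 6300 CPM), KRT18 (3010, 3990 and 4660) and KRT7 (1690, 1850 and 1640) were abundant. KRT8 (0.485, adjusted p = 0.0228) and KRT18 (0.63, adjusted p = 0.00362) were called higher with shEZH2#3, but not with the correction (adjusted p = 0.0655 and 0.137). With the correction KRT8 was called higher with shEZH2#1 (0.42, adjusted p = 0.0124). KRT7 was then called lower with shEZH2#1 (-0.35, adjusted p = 0.0207) and shEZH2#3 (-0.73, adjusted p = 0.000175). KRT19 was called lower with both hairpins (7.03, 2.16 and 0.953 CPM), and MUC1 was called lower with shEZH2#1 and higher with shEZH2#3 (250, 98.6 and 691 CPM). The calls of KRT19 and MUC1 held with the correction. Among markers of other cell types, the leukocyte genes PTPRC and CD3E and the fibroblast genes COL1A2 and PDGFRA were at 0 in all libraries. The 8 fibroblast markers summed to 59.6 to 68.4 CPM in the shluc libraries, against 54.5 to 63.4 with shEZH2#1 and 79.7 to 118 with shEZH2#3. The 3 endothelial markers measured summed to 13.8 to 19.8, 7.97 to 8.29 and 28.4 to 32.7 CPM, with KDR at 0, and the 5 leukocyte markers to 16.4 to 21, 13.9 to 17.3 and 19.6 to 25.3, nearly all of it CD68. Within these sums single genes moved in different directions: COL1A1 (46.8, 26.1 and 67.5 CPM) and CDH5 (17.4, 7.55 and 30) were called lower with shEZH2#1 and higher with shEZH2#3, and DCN (11.3, 25 and 18.5) was called higher with both. With the correction the rise of COL1A1 with shEZH2#3 was not called (0.02, adjusted p = 0.941), and the other calls of COL1A1, CDH5 and DCN held. The part of these markers in the results was not tested.

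Of the 10 genes, 8 passed the filter on low counts and were tested. With shEZH2#1, 4 were higher than in shluc (TGM1, EVPL, PRSS27 and PKP3) and 1 was lower (DSP). Over all genes tested, 11.2% were called higher and 7.89% lower in that comparison. With shEZH2#3, 6 were higher (TGM1, EVPL, PPL, PRSS27, JUP and PKP3) and 2 were lower (DSP and DSG2), where 24.4% of all genes were called higher and 19.8% lower. The median log2 fold change of the 8 was 0.35 with shEZH2#1 and 0.75 with shEZH2#3, beside -0.07 and -0.01 over all genes. With a correction for transcript GC content and length, the medians of the 8 were 0.08 and 0.14, beside -0.01 and -0.01 over all genes. Both comparisons use the same 3 shluc libraries, so their values are given side by side and not as independent results. For the mean of both hairpins, 6 of the 8 were higher and 2 lower, where 19.6% and 16.6% of all genes were. A call for the mean need not be shared by both hairpins: JUP (mean 0.40, adjusted p = 0.0322) was at -0.21 with shEZH2#1 and 1.00 with shEZH2#3. PPL and DSG2 were not called with shEZH2#1 either. With the correction 2 were higher for the mean (TGM1 and EVPL) and 1 lower (DSP), beside 1131 and 1330 over all genes. Upper quartile scaling moved the median of all genes with shEZH2#3 to -0.18 and the calls over all genes from 3237 higher and 2624 lower to 2421 higher and 3720 lower. It left 7 of these 8 genes called with shEZH2#3, without PKP3. Without shluc replicate 2 and shEZH2#3 replicate 1 together, 3 of these 8 genes were called with shEZH2#1 (TGM1, EVPL and PKP3), beside 2240 over all genes. Leaving out shluc replicate 2 alone, or shEZH2#1 replicate 3, left 2 called with shEZH2#1 (TGM1 and PKP3). Over all genes 1550 and 1159 were called in these fits.

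**Figure D1:**
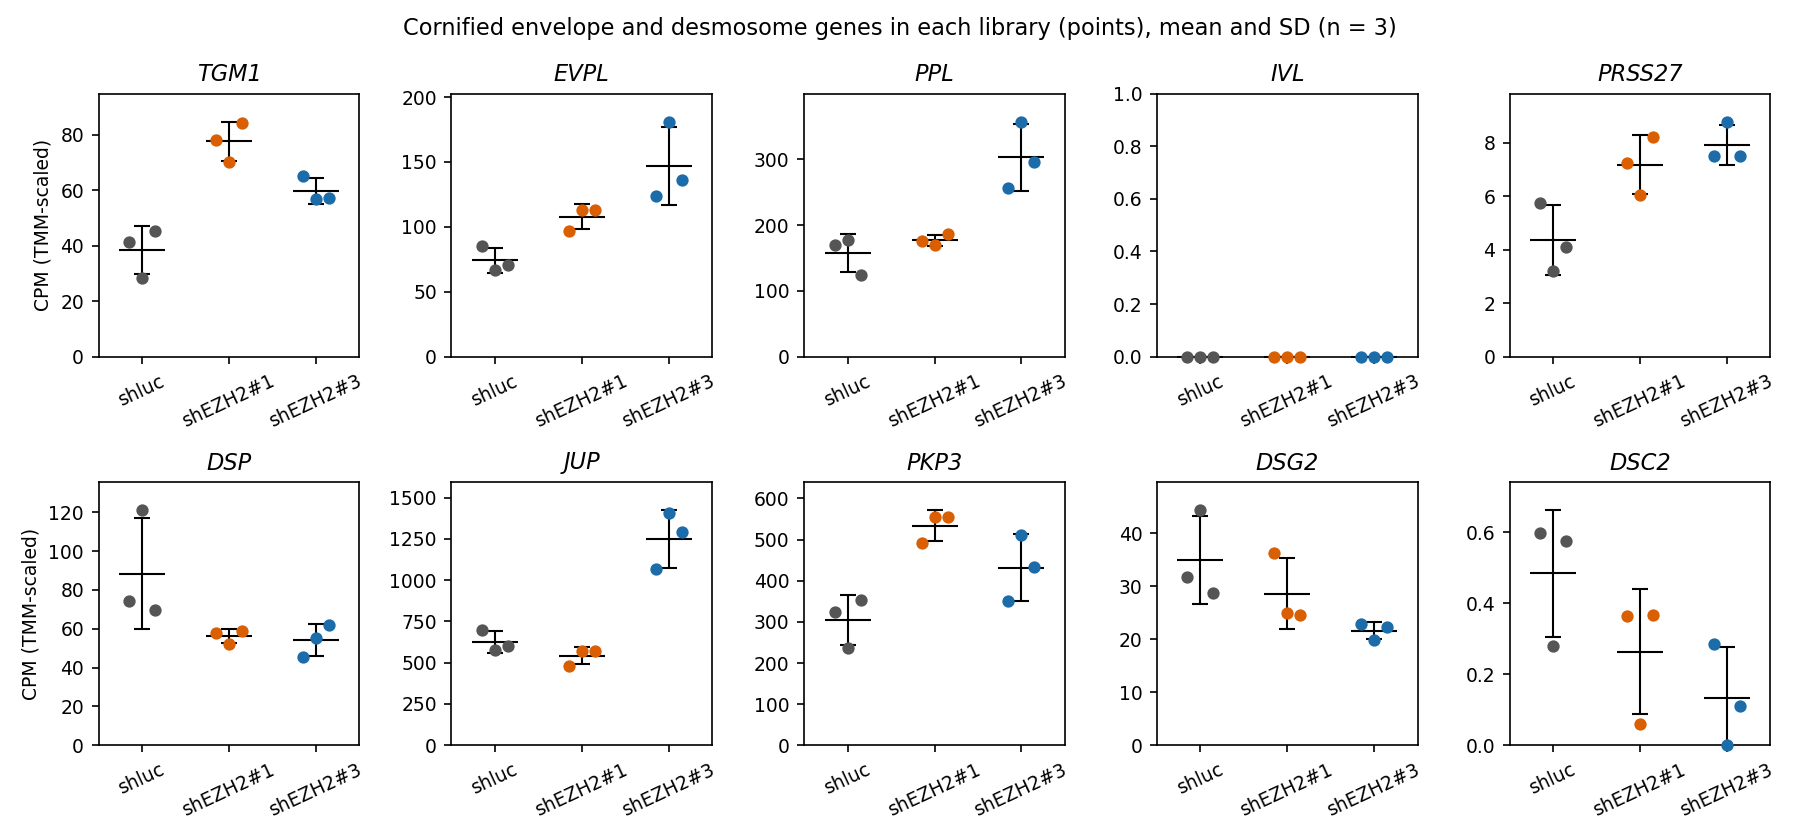
Level of each of the 10 genes in CPM (linear axis from 0, a scale per gene) in the 3 libraries of shluc, shEZH2#1 and shEZH2#3; points are libraries, the wide bar is the mean and the whiskers are the SD (n = 3). TGM1, EVPL and PRSS27 lie above all shluc libraries with both hairpins, DSP lies below them, JUP is highest in the shEZH2#3 libraries (1070 to 1410 CPM), and IVL is at 0 throughout.

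TGM1 (ENSG00000092295, GRCh38 chromosome 14, 24249114 to 24264432, minus strand) encodes transglutaminase 1, the membrane-bound enzyme that cross-links the envelope. It measured 41.3, 28.5 and 45.4 CPM in shluc replicates 1 to 3, against 78.2, 70 and 84.1 with shEZH2#1 and 64.9, 56.9 and 57.2 with shEZH2#3. No hairpin library overlapped the control range, and shEZH2#1 also lay above shEZH2#3. The rise was 2.02-fold with shEZH2#1 (log2 fold change 1.01 ± 0.17 SE, adjusted p = 0.000525) and 1.56-fold with shEZH2#3 (0.64 ± 0.17, adjusted p = 0.00516). After the GC and length correction the rise with shEZH2#1 was 0.77 ± 0.12 (adjusted p = 0.000957), while that with shEZH2#3 was 0.17 ± 0.12 and no longer called (adjusted p = 0.34). Without shluc replicate 2 and shEZH2#3 replicate 1 the rise with shEZH2#3 was 0.40 (adjusted p = 0.0334).

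EVPL (ENSG00000167880, chromosome 17, 76004502 to 76027452, minus strand) encodes envoplakin, a plakin of the envelope scaffold. Its levels were 85.4, 66.9 and 70.5 CPM in the shluc libraries, against 96.8, 113 and 113 with shEZH2#1 and 124, 181 and 136 with shEZH2#3. All hairpin libraries exceeded all control libraries, and all shEZH2#3 libraries exceeded those of shEZH2#1. EVPL rose 1.98-fold with shEZH2#3 (0.98 ± 0.16, adjusted p = 0.000164) and 1.45-fold with shEZH2#1 (0.54 ± 0.16, adjusted p = 0.0272). The former held with the GC and length correction (0.40 ± 0.09, adjusted p = 0.007), and the latter did not (0.17, adjusted p = 0.232). The call with shEZH2#1 was also lost when any one of 4 libraries was left out, namely shluc replicate 2 or 3 (adjusted p = 0.0828 and 0.0538) or shEZH2#1 replicate 2 or 3 (0.112 and 0.115). EVPL overlaps CDK3 (2.242 to 7.005 CPM of the library total) on the opposite strand, and the strand setting of the counting is not given in the sources used here.

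PPL (ENSG00000118898, chromosome 16, 4882507 to 4960741, minus strand) encodes periplakin, the partner of envoplakin. It stood at 170, 178 and 124 CPM in the shluc libraries, against 176, 170 and 186 with shEZH2#1 and 257, 357 and 296 with shEZH2#3. The shEZH2#1 libraries overlapped the controls, whereas the shEZH2#3 libraries lay above both other groups. The rise with shEZH2#3 was 1.93-fold (0.94 ± 0.17, adjusted p = 0.000261) and held at 0.49 ± 0.12 in the corrected fit (adjusted p = 0.0102). With shEZH2#1 the log2 fold change was 0.17 ± 0.17 (adjusted p = 0.505), an interval of ±2 SE from -0.16 to 0.50. SEC14L5, which overlaps PPL on the opposite strand, had at most 0.476 CPM.

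PRSS27 (ENSG00000172382, chromosome 16, 2712418 to 2720551, minus strand) encodes marapsin, a serine protease of stratified squamous epithelia. Levels were low: 5.76, 3.19 and 4.12 CPM in the shluc libraries, against 7.26, 6.04 and 8.23 with shEZH2#1 and 7.49, 8.79 and 7.51 with shEZH2#3. Both hairpin groups lay above the control range. It rose 1.65-fold with shEZH2#1 (0.72 ± 0.23, adjusted p = 0.0304) and 1.82-fold with shEZH2#3 (0.87 ± 0.22, adjusted p = 0.00462). With the GC and length correction neither was called (0.15, adjusted p = 0.684, and 0.11, adjusted p = 0.739). For shEZH2#1 the call ended on leaving out shluc replicate 2 or 3 (adjusted p = 0.135 and 0.0585) or shEZH2#1 replicate 1 or 3 (0.0733 and 0.133).

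IVL (ENSG00000163207, chromosome 1, 152908545 to 152911886, plus strand) encodes involucrin, the first precursor laid down under the membrane. It had 0 counts in all 9 libraries. A count of 0 allows up to 3 counts, or 0.12 to 0.22 CPM depending on the library, an upper limit that covers counting error only. No change in involucrin RNA was therefore measurable with either hairpin, although genes for the enzyme and scaffold around it were well covered (716 to 1293 estimated counts for TGM1).

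Promoter sequence before the RefSeq start (GRCh38.p14) was matched for 6 of the 10 genes: IVL, PRSS27, DSP, JUP, DSG2 and DSC2. Shown are the stretches before the first GENCODE 29 exon for IVL, the envelope precursor with no counts, and for DSP and DSG2, the desmosome genes that fell with shEZH2#3. They lie at chr1:152908296-152908544, chr6:7541421-7541574 and chr18:31497927-31498042, all on the plus strand, and read 5′ to 3′. Capitals mark matches on either strand to the AP-1 motif TGANTCA, the GC box GGGCGG and the TATA box TATAAA.
IVL: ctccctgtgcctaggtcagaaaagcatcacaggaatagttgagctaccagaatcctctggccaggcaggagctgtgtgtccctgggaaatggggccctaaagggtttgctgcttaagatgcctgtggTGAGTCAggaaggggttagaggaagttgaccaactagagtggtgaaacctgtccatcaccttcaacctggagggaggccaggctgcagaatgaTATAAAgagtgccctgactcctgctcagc
DSP: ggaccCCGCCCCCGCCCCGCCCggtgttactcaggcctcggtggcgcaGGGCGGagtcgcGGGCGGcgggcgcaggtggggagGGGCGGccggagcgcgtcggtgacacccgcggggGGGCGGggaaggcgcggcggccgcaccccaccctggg
DSG2: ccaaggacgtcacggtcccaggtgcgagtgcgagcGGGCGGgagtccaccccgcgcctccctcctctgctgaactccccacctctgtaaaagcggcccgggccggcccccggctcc
In the 250 bases before its start, IVL held 1 AP-1 match from position -123 and 1 TATA box from -30, with no GC box and no CpG. The same length before DSP held 7 GC boxes, a pair of which share a base, and 33 CpG, and that before DSG2 held 2 GC boxes, of which the one nearer the start lies outside the stretch shown, and 26 CpG. Neither held an AP-1 or TATA match. Among all 35116 windows of this length, 6.6% held the AP-1 motif, 42.6% a GC box and 10.7% a TATA box, and the median number of CpG was 11 (quartiles 3 and 23). A match describes these letters and is no sign of binding.

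DSP (ENSG00000096696, chromosome 6, 7541575 to 7586717, plus strand) encodes desmoplakin, which ties the desmosomal plaque to keratin filaments. It measured 74.1, 121 and 69.8 CPM in the shluc libraries, against 57.9, 51.9 and 58.6 with shEZH2#1 and 45.5, 55.1 and 61.9 with shEZH2#3. Every hairpin library lay below every control library, and shluc replicate 2 stood well above the other controls. DSP fell by 0.66 on the log2 scale with shEZH2#1 (SE 0.19, adjusted p = 0.0193) and by 0.71 with shEZH2#3 (SE 0.19, adjusted p = 0.00564). The GC and length correction left -0.43 ± 0.13 with shEZH2#3 (adjusted p = 0.0285), while -0.37 ± 0.13 for shEZH2#1 was not called (adjusted p = 0.0658). Without shluc replicate 2 the change with shEZH2#1 was -0.37 (adjusted p = 0.105), and it also lost its call without shEZH2#1 replicate 2 or 3 (0.0934 and 0.0654). With shEZH2#3 the change was -0.42 without shluc replicate 2 (adjusted p = 0.0336), and the call was lost only when shluc replicate 2 and shEZH2#3 replicate 1 were both left out, at -0.30 (adjusted p = 0.102), among the alternatives run.

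JUP (ENSG00000173801, chromosome 17, 41754604 to 41786931, minus strand) encodes plakoglobin, the armadillo protein shared by desmosomes and adherens junctions. Its levels were 700, 580 and 599 CPM in the shluc libraries, against 481, 570 and 574 with shEZH2#1 and 1070, 1410 and 1290 with shEZH2#3. The shEZH2#3 libraries were high and the shEZH2#1 libraries just below the controls, with no overlap between any of the groups. JUP rose 2-fold with shEZH2#3 (1.00 ± 0.16, adjusted p = 0.000112) and still rose in the corrected fit (0.40 ± 0.09, adjusted p = 0.00596). With shEZH2#1 the log2 fold change was -0.21 ± 0.16 (adjusted p = 0.38), and the correction moved it to -0.54 ± 0.09, which was called (adjusted p = 0.00128).

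PKP3 (ENSG00000184363, chromosome 11, 392614 to 404908, plus strand) encodes plakophilin 3, the plakophilin found in desmosomes of most epithelial layers. It stood at 325, 236 and 352 CPM in the shluc libraries, against 491, 556 and 555 with shEZH2#1 and 350, 512 and 433 with shEZH2#3. All shEZH2#1 libraries were above the controls, while shEZH2#3 replicate 1 lay within the control range. PKP3 rose 1.75-fold with shEZH2#1 (0.81 ± 0.18, adjusted p = 0.00373) and 1.42-fold with shEZH2#3 (0.50 ± 0.18, adjusted p = 0.0258). With the GC and length correction the first stayed called (0.35 ± 0.09, adjusted p = 0.0118) and the second turned to -0.15 ± 0.09 (adjusted p = 0.253). Upper quartile scaling also ended the call with shEZH2#3 (0.34, adjusted p = 0.0722), as did leaving out shluc replicate 2 (adjusted p = 0.104), shEZH2#3 replicate 2 (0.148) or shEZH2#3 replicate 3 (0.0574).

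DSG2 (ENSG00000046604, chromosome 18, 31498043 to 31549008, plus strand) encodes desmoglein 2, the desmosomal cadherin of simple epithelia and of basal layers. It measured 31.8, 44.3 and 28.7 CPM in the shluc libraries, against 36.3, 24.9 and 24.5 with shEZH2#1 and 22.9, 19.8 and 22.2 with shEZH2#3. The shEZH2#3 libraries were the lowest, with no overlap with either other group, and those of shEZH2#1 overlapped the controls. DSG2 fell by 0.69 on the log2 scale with shEZH2#3 (SE 0.19, adjusted p = 0.00621), and with the GC and length correction the change was -0.08 ± 0.12 (adjusted p = 0.665). With shEZH2#1 it was -0.29 ± 0.19 (adjusted p = 0.288), with an interval of ±2 SE from -0.66 to 0.08.

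DSC2 (ENSG00000134755, chromosome 18, 31058840 to 31102522, minus strand) encodes desmocollin 2, the partner cadherin of desmoglein 2. It had 7 to 13 estimated counts per library in the shluc libraries, against 1 to 6 with shEZH2#1 and 0 to 5 with shEZH2#3, and it did not pass the filter on low counts. The levels were 0.599, 0.279 and 0.575 CPM in the shluc libraries, against 0.363, 0.0604 and 0.367 with shEZH2#1 and 0.286, 0 and 0.11 with shEZH2#3. Libraries of both hairpins overlapped the controls, and these counts were too few to size a change. DSC2 passed the filter and was called lower with shEZH2#3 where shEZH2#3 replicate 1 was left out, alone or together with shluc replicate 2. It passed there only through its shluc counts, and the library left out was its highest with shEZH2#3 (0.286 CPM). No change is read from that call.

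Levels of different genes were compared per kilobase of the longest transcript. In shluc the order was JUP (179 ± 18.5 CPM per kb, SD, n = 3), PKP3 (108 ± 21.5), PPL (25.2 ± 4.65), TGM1 (13.8 ± 3.16), EVPL (11.2 ± 1.48), DSP (9.03 ± 2.92), DSG2 (5.99 ± 1.42), PRSS27 (3.86 ± 1.15), DSC2 (0.0393 ± 0.0145) and IVL at 0. From TGM1 to PRSS27, each gene and its neighbour in that order overlapped within their SD, whereas JUP, PKP3, PPL and DSC2 stood apart from their neighbours. With shEZH2#1, PKP3 (190 ± 13.4) stood above JUP (155 ± 15.0). With shEZH2#3, JUP reached 359 ± 49.7 beside 154 ± 28.8 for PKP3. JUP and PKP3 had more RNA per length than DSP and DSG2 in every group: DSP was at 5.73 and 5.53 CPM per kb with shEZH2#1 and shEZH2#3, and DSG2 at 4.9 and 3.71. PKP2, another plakophilin, was far lower, at 0.725 CPM per kb in shluc, 0.607 with shEZH2#1 and 0.439 with shEZH2#3. In bulk RNA, fewer cells of a type and less RNA per cell cannot be told apart.

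**Figure D2:**
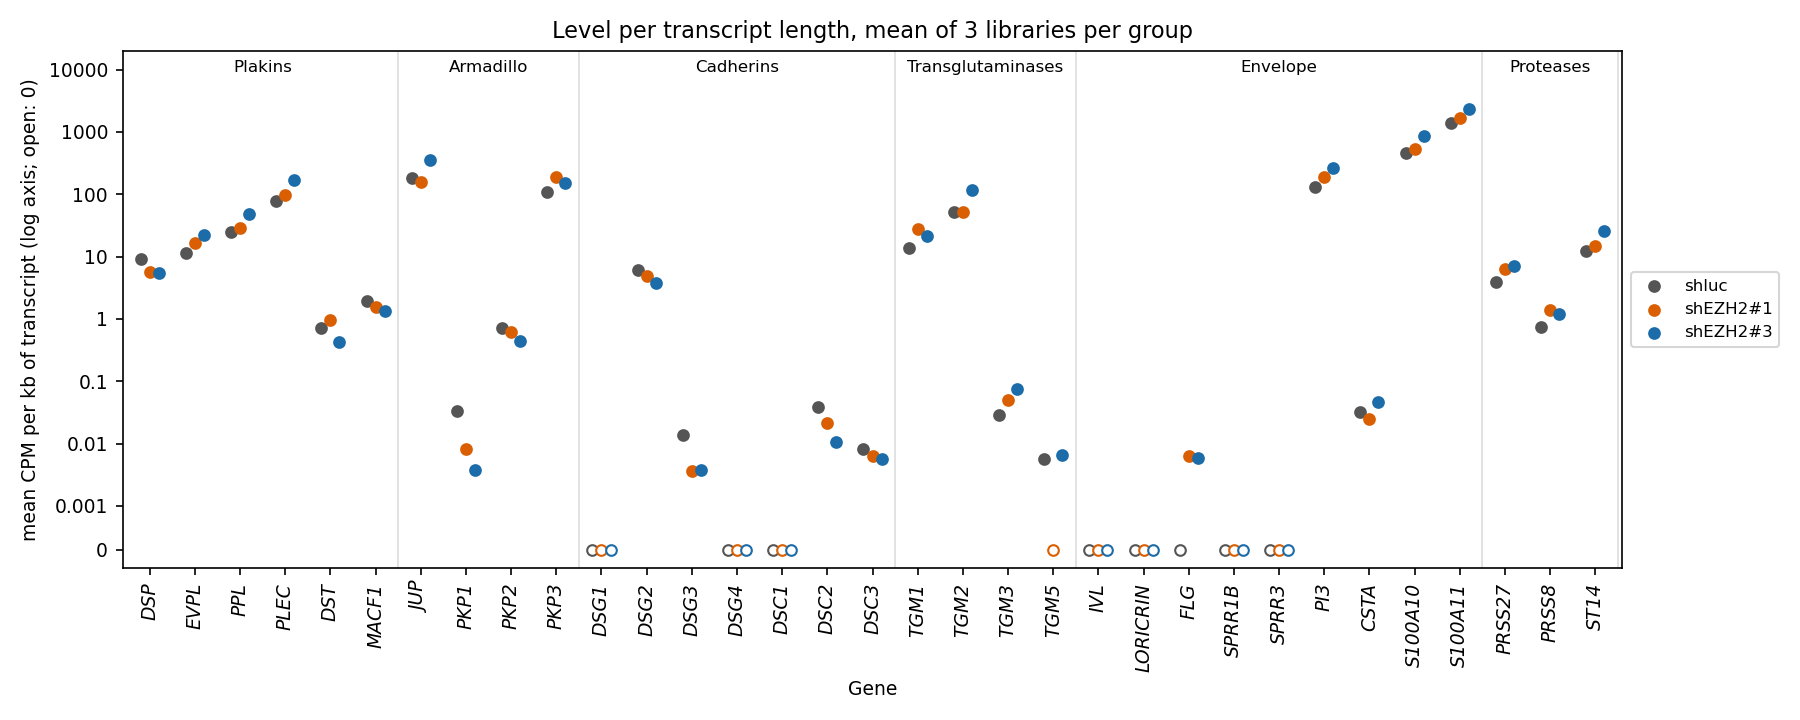
Mean level per kilobase of the longest transcript (CPM per kb, log axis, open points at 0) in shluc, shEZH2#1 and shEZH2#3 for the 10 genes and chosen relatives, grouped by family. JUP and PKP3 exceed 100 CPM per kb in all groups, the keratinocyte desmosomal cadherins DSG1 and DSC1 and the precursors IVL, LORICRIN, SPRR1B and SPRR3 are at 0, and PLEC is the plakin with the highest level.

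The hairpins were also compared directly. The shluc libraries are not among the group means compared, but enter the filter, the scaling and the estimate of the spread. In the corrected fit they also enter the gene means from which the GC trend is taken. No gene of the 10 was higher with shEZH2#1 (9.46% of all genes were), and 2 were lower, PPL and JUP (15.5% of all genes were). Upper quartile scaling gave 3 higher (TGM1, PKP3 and DSG2) and 2 lower, and turned the split over all genes from 1254 higher and 2057 lower to 2207 and 1404. JUP was 2.31-fold lower with shEZH2#1 than with shEZH2#3 (log2 difference -1.21 ± 0.16, adjusted p = 2.44e-05). PPL was 1.71-fold lower (-0.78 ± 0.17, adjusted p = 0.00216). Both were called in all 21 alternatives run, with differences from -1.32 to -0.94 for JUP and from -0.88 to -0.52 for PPL. EVPL differed by -0.45 (adjusted p = 0.051), TGM1 by 0.38 (0.104) and DSG2 by 0.40 (0.124). PKP3 (0.31, adjusted p = 0.213), PRSS27 (-0.15, 0.668) and DSP (0.05, 0.873) did not pass either, and for DSP the interval of ±2 SE ran from -0.33 to 0.43. With GC and length corrected for, TGM1 (0.60, adjusted p = 0.00246) and PKP3 (0.50, adjusted p = 0.00075) were called higher with shEZH2#1, giving 2 higher and 2 lower, beside 13% and 14.9% of all genes.

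**Figure D3:**
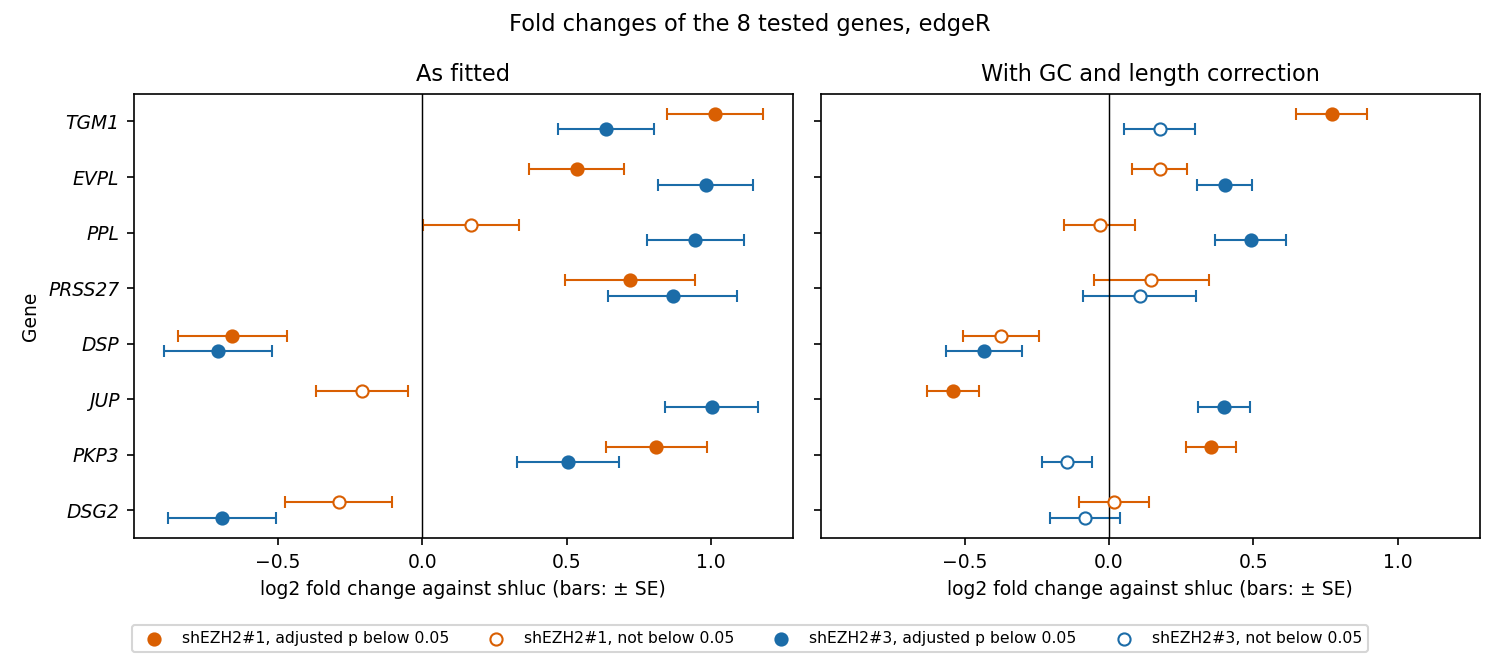
Log2 fold change against shluc (horizontal axis, bars ± SE) of the 8 tested genes with shEZH2#1 and shEZH2#3, as fitted on the left and with the GC and length correction on the right; filled points have an adjusted p below 0.05. As fitted, 5 genes were called with shEZH2#1 and 8 with shEZH2#3, and with the correction 3 and 4, with JUP on opposite sides of 0. Over all 13252 genes tested, 2523 and 5861 were called as fitted, and 2396 and 3191 with the correction.

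Fold changes of all genes followed transcript GC content in both comparisons. The median log2 fold change over 10 equal GC bins rose from -0.27 in the GC-poorest bin (median 37.5%) to 0.47 in the GC-richest (64.8%) with shEZH2#1, and from -0.60 to 0.70 with shEZH2#3. The genes that rose had GC-rich transcripts, from 58.7% in TGM1 through 59.5% in PPL, 61.5% in JUP, 63.5% in PRSS27 and 65.0% in EVPL to 66.7% in PKP3. Those that fell, DSP (47.9%) and DSG2 (42.0%), were less GC-rich. TGM1 with shEZH2#1 (1.01) was well above the median of genes in its bin (0.17), and DSP (-0.66) well below its own (-0.21). DSG2 was nearer to its bin, at -0.29 beside -0.23 with shEZH2#1 and -0.69 beside -0.51 with shEZH2#3. With the correction as an offset, 2 genes were called higher (TGM1 and PKP3) and 1 lower (JUP) with shEZH2#1, beside 8.02% and 10.1% of all genes. With shEZH2#3, 3 were higher (EVPL, PPL and JUP) and 1 lower (DSP), beside 12.2% and 11.9%. Which genes kept a call therefore differed between the fits, and the origin of the GC trend was not tested.

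**Figure D4:**
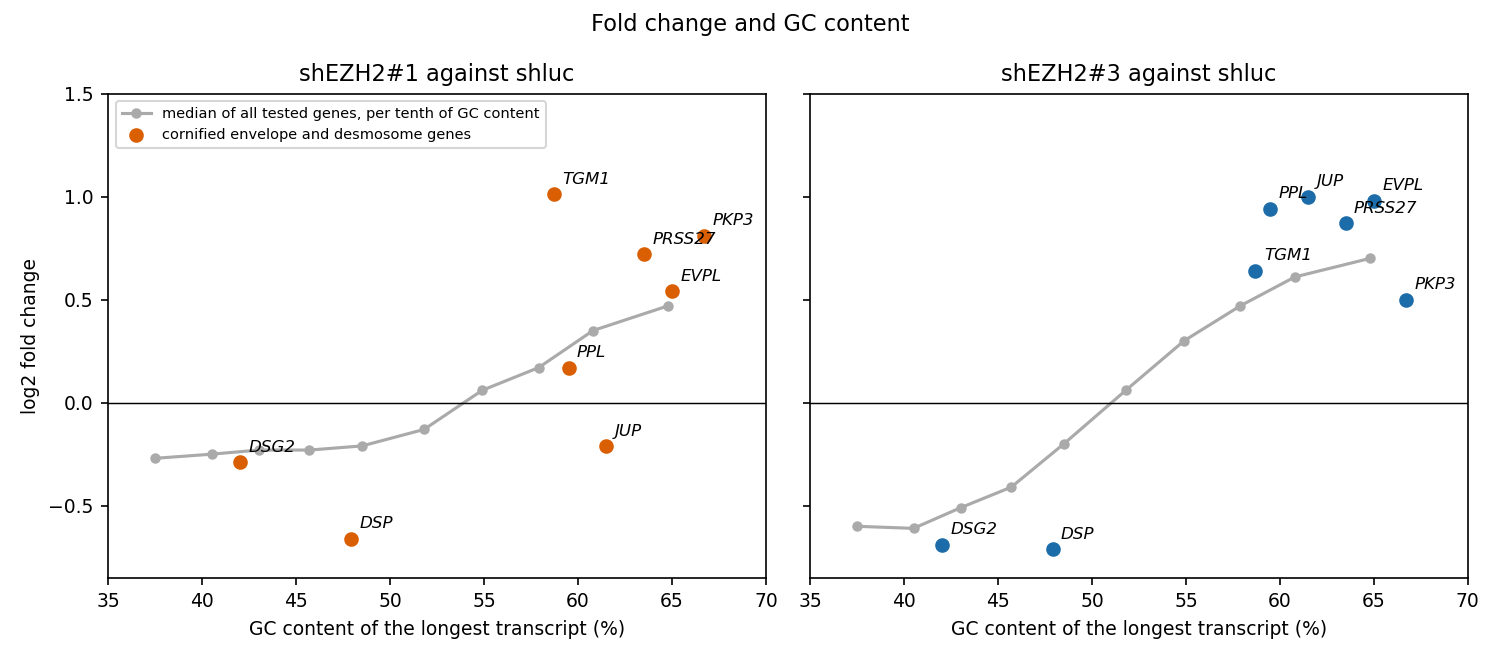
Log2 fold change against shluc (vertical axis) over the GC content of the longest transcript in percent (horizontal axis) for the 8 tested genes, with the median of all tested genes in each of 10 GC bins as a grey line. The line rises from -0.27 to 0.47 with shEZH2#1 and from -0.60 to 0.70 with shEZH2#3, and JUP lies below it with shEZH2#1 and above it with shEZH2#3.

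Counting genes whose groups did not overlap, with no test, gave 6 of the 8 with shEZH2#1 (TGM1, EVPL, PRSS27 and PKP3 higher, DSP and JUP lower), beside 37.2% of all genes. It gave 7 of the 8 with shEZH2#3 (TGM1, EVPL, PPL, PRSS27 and JUP higher, DSP and DSG2 lower), beside 52.8% of all genes.

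Few of the other desmosome genes were detected. Of 8 other desmosome genes, the desmosomal cadherins DSG1, DSG4 and DSC1 were at 0 in all libraries, and DSG3, DSC3 and the plakophilin PKP1 had at most 5 estimated counts in any library. PERP, a tetraspan protein of desmosomes, averaged 71.8 ± 5.24 CPM in the shluc libraries, against 60.8 ± 6.47 with shEZH2#1 and 57.4 ± 5.59 with shEZH2#3 (SD, n = 3) and was not called (adjusted p = 0.262 and 0.0753). PKP2, the plakophilin of simple epithelia and heart, was called lower with shEZH2#3 (-0.72 ± 0.29, adjusted p = 0.0455) at 3.12 and 1.89 CPM, and not with shEZH2#1 (adjusted p = 0.556). With the GC and length correction it was not called (-0.41, adjusted p = 0.235). Only 2 genes of the list were tested, and none was called with shEZH2#1, where 11.2% of all genes were higher and 7.89% lower. With shEZH2#3, 24.4% of all genes were higher and 19.8% lower.

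Other cornified envelope and epidermal differentiation complex genes numbered 36, of which 17 were at 0 in all libraries, among them LORICRIN, SPRR1A, SPRR1B and SPRR3, and 5 were tested. None of the 5 was called with shEZH2#1, where 11.2% of all genes were higher and 7.89% lower. The smallest adjusted p of the 5 there was 0.114, for PI3. With shEZH2#3, 4 were higher and 1 lower, where 24.4% and 19.8% of all genes were. S100A11, a calcium-binding protein that becomes cross-linked into the envelope, averaged 840 ± 143 CPM in shluc and 1400 ± 542 in shEZH2#3 (0.73 ± 0.21, adjusted p = 0.00996). S100A10, the annexin A2 ligand, averaged 557 ± 76.2 and 1030 ± 262 CPM (0.89 ± 0.18, adjusted p = 0.000729). PI3, which encodes the protease inhibitor elafin (1.00 ± 0.22, adjusted p = 0.0015), and CNFN, cornifelin (1.53 ± 0.43, adjusted p = 0.00835), were also higher, and ANXA1, annexin A1, was lower (-0.76 ± 0.16, adjusted p = 0.00128). CNFN was low, at 1.16 ± 0.395 CPM in shluc and 3.33 ± 2.42 in shEZH2#3, where the highest library was at 6.12. With GC and length corrected for, S100A10 alone of these 5 stayed called with shEZH2#3 (0.39, adjusted p = 0.019), and with shEZH2#1 ANXA1 was called higher (0.38, adjusted p = 0.029). PI3, CNFN and ANXA1 were named here after their values were seen, as were the other called genes named below beyond those the rule gave.

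Among relatives of TGM1, only TGM2, tissue transglutaminase, passed the filter of the 7 other transglutaminases. TGM2 averaged 265 ± 41.1 CPM in the shluc libraries, against 266 ± 25.5 with shEZH2#1 and 593 ± 33.6 with shEZH2#3. It rose by 1.16 ± 0.16 on the log2 scale with shEZH2#3 (adjusted p = 2.59e-05), whereas shEZH2#1 gave 0.00 ± 0.16 (adjusted p = 0.989), and the hairpins differed (adjusted p = 2.97e-05). With the GC and length correction the rise with shEZH2#3 was 0.89 (adjusted p = 3.59e-05). TGM3, another epidermal transglutaminase, and TGM5 had at most 5 and 1 estimated counts in any library.

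Of the other plakins, 3 were tested and EPPK1 was not analysed here. PLEC, plectin, which anchors keratin filaments at hemidesmosomes, averaged 1170 ± 140 CPM in the shluc libraries, against 1470 ± 133 with shEZH2#1 and 2570 ± 413 with shEZH2#3. It rose with shEZH2#3 (1.13 ± 0.17, adjusted p = 5.76e-05), also with GC and length corrected for (0.47, adjusted p = 0.00159), and was not called with shEZH2#1 (0.33 ± 0.16, adjusted p = 0.176). DST, dystonin (-0.78 ± 0.23, adjusted p = 0.01), and MACF1, a plakin that binds actin and microtubules (-0.53 ± 0.20, adjusted p = 0.0365), fell with shEZH2#3. Neither was called with shEZH2#3 after the correction (adjusted p = 0.348 and 0.205). None of the 3 was called with shEZH2#1 as fitted, where 11.2% of all genes were higher and 7.89% lower. With the correction DST was called higher with shEZH2#1 (0.68, adjusted p = 0.00741).

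The 20 epithelial serine proteases and inhibitors, the class to which PRSS27 belongs, included 6 tested genes. ST14, matriptase, averaged 42.9 ± 4.25 CPM in the shluc libraries, against 52.1 ± 1.21 with shEZH2#1 and 91.7 ± 19.3 with shEZH2#3, and rose with shEZH2#3 (1.10 ± 0.16, adjusted p = 5.76e-05). SPINT2, an inhibitor of such proteases, fell with shEZH2#3 (-0.80 ± 0.25, adjusted p = 0.0129). With GC and length corrected for, both calls with shEZH2#3 held (0.46, adjusted p = 0.00925, and -1.24, adjusted p = 0.00116). PRSS8, prostasin, stood at 1.40, 2.62 and 2.27 CPM and was not called (adjusted p = 0.108 and 0.138). None of the 6 was called with shEZH2#1 as fitted, where 11.2% of all genes were higher and 7.89% lower. With the correction SPINK5 was called higher there (0.81, adjusted p = 0.0107), and SPINT1 was called lower for each hairpin (-1.21, adjusted p = 0.0371, for shEZH2#1; -1.13, adjusted p = 0.0354, for shEZH2#3).

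Of 23 transcription factors of squamous differentiation, 15 were tested. With shEZH2#1, 1 was higher (CEBPA) and 1 lower (TFAP2A), and with shEZH2#3, 4 were higher (CEBPA, ELF3, CEBPB and NOTCH3) and 1 lower (HES1). Over all genes the shares were 11.2% higher and 7.89% lower with shEZH2#1 and 24.4% and 19.8% with shEZH2#3. CEBPA, a factor active in differentiating epidermis, averaged 79.7 ± 15.3 CPM in the shluc libraries, against 122 ± 6.56 with shEZH2#1 and 311 ± 23.0 with shEZH2#3. On the log2 scale it rose by 1.97 ± 0.16 with shEZH2#3 (adjusted p = 5.03e-07) and by 0.61 ± 0.16 with shEZH2#1 (adjusted p = 0.011). The correction left 1.34 (adjusted p = 7.65e-06) for the former and 0.16 (adjusted p = 0.348, not called) for the latter. ELF3, an epithelial ETS factor, rose with shEZH2#3 by 0.85 (adjusted p = 0.000384), the Notch receptor NOTCH3 by 1.00 (0.000176) and CEBPB by 0.77 (0.000972), while the Notch target HES1 changed by -0.78 (0.00473). TFAP2A, an AP-2 factor, changed by -0.60 with shEZH2#1 (adjusted p = 0.00838). With the GC and length correction ELF3 (0.52, adjusted p = 0.00207), HES1 (-0.78, adjusted p = 0.011) and TFAP2A (-0.42, adjusted p = 0.0194) stayed called, and CEBPB (adjusted p = 0.725) and NOTCH3 (adjusted p = 0.0551) did not. Not called as fitted but called with the correction were KLF4 (-0.86, adjusted p = 0.00808) and PRDM1 (0.75, adjusted p = 0.00564) with shEZH2#3 and NOTCH1 (-0.57, adjusted p = 0.00832) with shEZH2#1. ZNF750 and GRHL3, regulators of late differentiation, had at most 1 and 12 estimated counts in any library.

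All 8 core genes of the adherens junction, the junction with which JUP is shared, were tested. With shEZH2#1, 2 were called lower and 0 higher, where 7.89% and 11.2% of all genes were. With shEZH2#3, 5 were lower and 1 higher, where 19.8% and 24.4% of all genes were. CTNNA1, alpha-catenin, averaged 364 ± 57.7 CPM in the shluc libraries, against 237 ± 4.50 with shEZH2#1 and 253 ± 30.1 with shEZH2#3, and was called lower for each, by -0.62 ± 0.16 with the former (adjusted p = 0.00948) and -0.53 ± 0.16 with the latter (adjusted p = 0.011). CTNND1, p120-catenin, was lower too (-0.55 ± 0.17, adjusted p = 0.0252, and -0.46 ± 0.17, adjusted p = 0.0297). With shEZH2#3, CDH1, E-cadherin (-0.99, adjusted p = 0.00149), CTNNB1, beta-catenin (-0.80, adjusted p = 0.000583), and AFDN, afadin (-0.66, adjusted p = 0.0412), were also lower, and NECTIN4, a nectin, was higher (1.56, adjusted p = 0.0188). CDH1 was at 5.18, 5.23 and 2.61 CPM in shluc, shEZH2#1 and shEZH2#3, so its fall starts from a low level. NECTIN4 was lower still, at 0.69, 1.42 and 2.01 CPM. Its shEZH2#3 libraries (from 0.873 CPM) overlapped those of shluc (up to 0.921). After the correction CTNNA1 was still lower at -0.40 (shEZH2#1, adjusted p = 0.0152) and -0.31 (shEZH2#3, adjusted p = 0.0437), and CTNND1 was not called (adjusted p = 0.184 and 0.659). CDH1 was still lower with shEZH2#3 (-0.79, adjusted p = 0.00467), and CTNNB1 (-0.28, adjusted p = 0.0894), AFDN (-0.27, adjusted p = 0.376) and NECTIN4 (1.25, adjusted p = 0.0971) were not called. NECTIN1, another nectin, was called lower with shEZH2#3 in the corrected fit (-0.91, adjusted p = 0.000716) and not in the uncorrected one (adjusted p = 0.0882).

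For each tested gene, the gene with the most similar pattern over the 9 libraries was sought among 8101 others averaging at least 5 CPM, by the root mean square difference of centred log2 CPM. These were BAK1 for TGM1 (difference 0.068), SBNO2 for EVPL (0.068), PITPNM2 for PPL (0.085), TTC38 for PRSS27 (0.116), ANKRD17 for DSP (0.088), SLC7A5 for JUP (0.061), MIGA2 for PKP3 (0.064) and WDR3 for DSG2 (0.048). JUP itself varied with an SD of 0.577 on this scale and DSG2 with 0.372. Transcript GC content was 39.5% in WDR3, 43% in ANKRD17, 56.3% in TTC38, 58.8% in BAK1, 60.8% in PITPNM2, 61.1% in SLC7A5, 62.1% in MIGA2 and 66.7% in SBNO2.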

How the data were processed

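RNA of 9 irradiated KYSE180 samples was sequenced. Per the labels' protocols, polyadenylated RNA was made into dUTP-stranded TruSeq libraries. The submitters' processing notes name fastp, HISAT2, StringTie and GRCh38 (hg38) without versions; counting step, annotation and strand setting: not given in the sources used here. What the authors deposited are estimated counts by Ensembl gene, not normalized, with 14.7 to 18.5% of nonzero values carrying decimals. The table of the series and the single files held the same values for all 57905 genes.

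Counts were rounded, scaled by TMM and analysed in R 4.3.3 by edgeR 4.0.16 (filterByExpr, 13252 genes, quasi-likelihood fit of 3 group means over all 9 libraries, Benjamini-Hochberg over all genes, called below 0.05). SE is the size of the unshrunk log2 fold change divided by the square root of F. CPM errors are SD (n = 3). A log2 fold change carries edgeR's shrinkage. The GC and length correction is a smooth per library (span 0.3) on the longest GENCODE 29 transcript, used as an offset, with values for 97.7% of tested genes. Groups came from the titles. The lists, like the members, were chosen with earlier results of these data known. Named were all 10 members and, per pathway list, up to 4 genes called with both hairpins in the same direction, or else the 2 most abundant, and the nearest gene in pattern to each member. Called genes beyond these, and single genes of the marker lists, were named after their values were seen.

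Alternatives were DESeq2 1.42.0, limma-voom (limma 3.58.1), scaling by RLE or by the upper quartile, no filter, a filter of 5 CPM in 3 libraries, fits limited to the groups compared, a replicate block, the GC and length correction with and without that block, leaving out 2 abundant unnamed genes, each library in turn, and 2 libraries together. EPPK1 and PECAM1 were not analysed here. Depth limits IVL and DSC2: 1 count was worth 0.0473 to 0.0669 CPM of the library total.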

Additional observations from a re-analysis of the deposited data

Results flagged for a closer look

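Several genes differed between the 2 hairpins in a direct edgeR test (log2 difference, shEZH2#1 minus shEZH2#3, with Benjamini-Hochberg adjusted p). JUP differed by -1.21 ± 0.16 (SE, adjusted p = 2.44e-05): the 3 shEZH2#1 libraries were at 481 to 574 CPM and the 3 shEZH2#3 libraries at 1070 to 1410. PPL differed by -0.78 ± 0.17 (adjusted p = 0.00216), with 170 to 186 CPM against 257 to 357. EZH2 RNA itself did not pass that test (0.02 ± 0.19, adjusted p = 0.943).

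Related genes were flagged only if they were also called with a hairpin against shluc. Those that differed the same way were CEBPA (-1.35 ± 0.16, adjusted p = 7.77e-06), CNFN (-1.21 ± 0.44, adjusted p = 0.0484), TGM2 (-1.15 ± 0.16, adjusted p = 2.97e-05), ELF3 (-1 ± 0.16, adjusted p = 0.000127), ST14 (-0.81 ± 0.16, adjusted p = 0.00108), PLEC (-0.80 ± 0.17, adjusted p = 0.00152), S100A10 (-0.68 ± 0.18, adjusted p = 0.00884), TFAP2A (-0.64 ± 0.15, adjusted p = 0.00409) and NOTCH3 (-0.57 ± 0.17, adjusted p = 0.0175). PRDM1 (-0.865 ± 0.209, adjusted p = 0.00507) and NOTCH1 (-0.545 ± 0.166, adjusted p = 0.0214) also differed this way, but were not called against shluc as fitted. Higher with shEZH2#1 than with shEZH2#3 were DST (1.18 ± 0.23, adjusted p = 0.0009), CDH1 (1.00 ± 0.22, adjusted p = 0.00251), ANXA1 (0.89 ± 0.16, adjusted p = 0.000574) and CTNNB1 (0.54 ± 0.16, adjusted p = 0.0172). With the GC and length correction CNFN (adjusted p = 0.135), NOTCH3 (adjusted p = 0.137), NOTCH1 (adjusted p = 0.141) and CTNNB1 (adjusted p = 0.0816) were no longer called between the hairpins. NECTIN1 (0.739, adjusted p = 0.00227), KLF4 (0.657, adjusted p = 0.0317) and SPINT2 (0.645, adjusted p = 0.0475) were called only with it, all higher with shEZH2#1. Over all genes, 3311 were called between the hairpins as fitted and 3698 with the correction.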

How the results depend on the processing

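Of the 8 tested genes, 5 were called with shEZH2#1, 8 with shEZH2#3, 8 for the mean of both hairpins and 2 between the hairpins. Over all 13252 genes tested, 2523, 5861, 4804 and 3311 were called. The GC and length correction gave 3, 4, 3 and 4, beside 2396, 3191, 2461 and 3698 over all genes. With the replicate block added the counts of the 8 were the same, beside 2171, 2990, 2252 and 3493. With single libraries left out the counts ran from 2 to 5 (shEZH2#1; 2 without shluc replicate 2 or shEZH2#1 replicate 3, 3 without shluc replicate 3 or shEZH2#1 replicate 2), 7 to 9 (shEZH2#3, where 9 includes DSC2, which then passed the filter) and 2 to 4 (between hairpins; 4 without shluc replicate 2). Over all genes, single libraries left out gave 1159 to 3063 calls with shEZH2#1, 4251 to 5823 with shEZH2#3 and 1956 to 3941 between hairpins. Leaving out both shluc replicate 2 and shEZH2#3 replicate 1 gave 3 with shEZH2#1 and 5 between hairpins, beside 2240 and 4191 over all genes. Between hairpins, upper quartile scaling gave 5 and only the groups compared gave 4, beside 3611 and 3864 over all genes. Of 40 tested genes in the pathway lists together, 4 were called with shEZH2#1 (1 higher, 3 lower, beside 11.2% and 7.89% of all genes) and 23 with shEZH2#3 (12 higher, 11 lower, beside 24.4% and 19.8%). The correction, alone or with the block, gave 7 and 14. With the correction alone, 8.02% of all genes were higher and 10.1% lower with shEZH2#1, and 12.2% and 11.9% with shEZH2#3. Single libraries left out gave 1 to 6 (1 without shEZH2#1 replicate 2, where 1344 of all genes were called) and 16 to 25.

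Signs changed for values that were not called after the change: with the correction, alone and with the block, PPL with shEZH2#1 (-0.03, -0.02), DSG2 with shEZH2#1 (0.02, 0.01), PKP3 with shEZH2#3 (-0.15, -0.15) and PRSS27 between hairpins (0.04, 0.04). PRSS27 between hairpins was 0.02 with upper quartile scaling, and DSP between hairpins ran from -0.06 (without shEZH2#3 replicate 1) to 0.16 with single libraries left out and -0.06 with both libraries out. The cause was not tested. TGM1 and PKP3 with shEZH2#1, and EVPL, PPL and JUP with shEZH2#3, were called in all 21 alternatives.

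Over all genes the calls with shEZH2#1 went from 2523 to 1550 without shluc replicate 2, 1344 without shEZH2#1 replicate 2 and 1159 without shEZH2#1 replicate 3. With shEZH2#3 they went from 5861 to 3191 with the correction (2990 with the block), for the mean from 4804 to 2461 (2252), and between hairpins from 3311 to 1956 without shEZH2#1 replicate 1.

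Replicate numbers are shared across groups, but same-numbered libraries did not visibly deviate together (correlations from -0.12 to 0.08). The GC trend of each library enters these correlations, so they cannot exclude that same-numbered libraries were prepared together. The main fit did not pair them. With the replicate block the counts were 5, 8, 7 and 2, beside 2208, 5482, 4453 and 2938 over all genes. No call of a single gene of the 8 against shluc or between hairpins changed. Estimated counts of 0 to 13 per library limit what can be said of IVL and DSC2.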
